A study of Mus musculus with 6 samples.

Results

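The genes described here are 31 listed genes of glycolysis and of the response to low oxygen, measured in mouse embryonic stem cells in which Activin/Nodal signalling was raised or blocked. For each gene its brightest probe set, by mean over the 6 arrays of the series, was taken as log2 of the deposited intensity. Of the 31 genes, 28 had a probe set that the platform annotation assigns to their symbol alone, out of 18193 genes so represented on the array. Gapdh was present as Affymetrix control probe sets and is described without a test, and Eno1 and Gpi1 were not analysed here. All cells were E14Tg2a, a feeder-independent embryonic stem cell line, grown in serum-free N2B27 medium that held 1000 U/ml LIF together with 20 ng/ml BMP4. The control cells were untreated, with no vehicle stated. The activin cells received 10 ng/ml activin, a ligand of the Smad2/3 pathway, for 2 h. The SB431542 cells received 5 µM SB431542, an inhibitor of the type I receptors that activin and Nodal use, for 24 h. Each group had 2 arrays, and agent and duration cannot be told apart. Separate cultures for the 2 arrays of a group are not stated in the labels. The p-values set differences between group means against the spread between arrays of the same group, and that spread may be only technical.

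Glycolysis takes up glucose through the Slc2a transporters, traps it with hexokinase, commits it at phosphofructokinase and splits it by aldolase into triose phosphates that are oxidised to pyruvate. Lactate dehydrogenase then reduces pyruvate to lactate, while Pdk1 restrains the entry of pyruvate into mitochondria by phosphorylating pyruvate dehydrogenase. When oxygen is low, prolyl hydroxylases of the Egln family no longer mark hypoxia-inducible factor for destruction, and the stabilised factor raises many glycolytic genes together with Vegfa, Bnip3, Car9, Ankrd37 and Egln3 itself. Embryonic stem cells also use glycolysis in air.

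Hypoxia-inducible factor binds a core of ACGTG or GCGTG, so the promoters of members on which the results turn are shown with that core in capitals, on either strand (CACGT and CACGC on the other). The windows run from 250 bases before to 50 bases after the annotated start, 5′ to 3′ on the gene's strand, from RefSeq on GRCm38.p6. Slc2a1, Pfkp, Ldhb and Vegfa are shown because they differed after SB431542, and Bnip3, Egln3 and Ankrd37 because they differed most between the activin arrays. By symbol 29 of the 31 members were matched to the table, all but Slc2a3 and Ndrg1.
Slc2a1, chr4:119108495-119108794, plus strand: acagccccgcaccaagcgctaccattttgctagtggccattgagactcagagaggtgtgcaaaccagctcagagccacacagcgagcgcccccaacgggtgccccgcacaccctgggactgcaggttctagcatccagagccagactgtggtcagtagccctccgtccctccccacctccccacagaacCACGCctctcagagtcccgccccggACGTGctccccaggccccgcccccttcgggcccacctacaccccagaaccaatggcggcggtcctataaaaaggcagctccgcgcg
Pfkp, chr13:6648722-6649021, minus strand: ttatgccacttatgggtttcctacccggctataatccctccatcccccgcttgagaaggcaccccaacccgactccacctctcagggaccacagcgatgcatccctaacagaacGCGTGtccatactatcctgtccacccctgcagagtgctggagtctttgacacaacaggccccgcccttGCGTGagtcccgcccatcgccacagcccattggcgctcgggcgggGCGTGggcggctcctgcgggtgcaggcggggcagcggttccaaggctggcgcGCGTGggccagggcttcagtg
Ldhb, chr6:142507908-142508207, minus strand: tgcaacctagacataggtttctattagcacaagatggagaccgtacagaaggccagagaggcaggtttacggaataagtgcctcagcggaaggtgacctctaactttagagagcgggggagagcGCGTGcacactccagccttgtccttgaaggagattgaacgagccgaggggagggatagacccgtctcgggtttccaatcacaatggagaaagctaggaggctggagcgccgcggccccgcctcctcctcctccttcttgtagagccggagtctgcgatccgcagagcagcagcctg
Vegfa, chr17:46025114-46025413, minus strand: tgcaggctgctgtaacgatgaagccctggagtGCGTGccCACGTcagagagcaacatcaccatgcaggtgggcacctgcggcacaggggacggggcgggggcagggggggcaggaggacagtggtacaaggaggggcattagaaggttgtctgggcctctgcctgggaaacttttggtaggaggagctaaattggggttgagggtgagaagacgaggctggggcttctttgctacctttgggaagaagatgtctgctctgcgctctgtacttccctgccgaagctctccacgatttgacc
Bnip3, chr7:138909457-138909756, minus strand: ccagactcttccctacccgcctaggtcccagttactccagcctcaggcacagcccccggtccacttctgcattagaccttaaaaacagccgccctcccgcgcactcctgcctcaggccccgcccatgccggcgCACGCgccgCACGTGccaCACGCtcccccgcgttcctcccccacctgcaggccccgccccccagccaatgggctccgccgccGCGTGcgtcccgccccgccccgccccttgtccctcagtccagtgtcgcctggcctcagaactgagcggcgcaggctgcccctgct
Egln3, chr12:54203825-54204124, minus strand: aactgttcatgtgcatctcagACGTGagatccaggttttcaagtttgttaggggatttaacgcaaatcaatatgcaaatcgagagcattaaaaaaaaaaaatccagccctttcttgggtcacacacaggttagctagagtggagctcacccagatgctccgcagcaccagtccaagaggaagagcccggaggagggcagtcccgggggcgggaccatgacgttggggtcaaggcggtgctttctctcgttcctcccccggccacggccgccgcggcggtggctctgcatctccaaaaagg
Ankrd37, chr8:45999801-46000100, minus strand: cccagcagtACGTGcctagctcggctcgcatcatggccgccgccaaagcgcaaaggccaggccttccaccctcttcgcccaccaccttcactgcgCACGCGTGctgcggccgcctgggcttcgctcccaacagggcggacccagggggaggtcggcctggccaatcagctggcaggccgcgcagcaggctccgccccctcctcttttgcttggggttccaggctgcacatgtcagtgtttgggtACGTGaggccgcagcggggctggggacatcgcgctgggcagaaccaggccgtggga

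Slc2a1, Pfkp and Ldhb held 2, 4 and 1 matches. Vegfa held 2 in the window shown, which belongs to the downstream one of its annotated starts. The other Vegfa window, chr17:46032328-46032627, lies upstream on the minus strand, held 0 and is not shown. Both Vegfa matches thus lie downstream of the upstream start, and the promoter window of that start held none. Bnip3, Egln3 and Ankrd37 held 5, 1 and 4. The Slc2a1 matches begin 61 and 36 bases before the start (positions −61 and −36), and 1 of the Pfkp matches lies after it, at position 30. In Bnip3, 2 of the matches overlap in a CACGTG, the letters of an E-box, at positions −108 and −107. Of the 42 windows listed for 29 members, some of which overlap, 78.6% held at least 1 match, against 43.8% of all 32851 windows. The members' windows were also richer in G and C, with a median of 62.2% against 52.7%. Among all windows with a G and C content of 56.7% to 67.2%, the middle range of the members, 62.7% held a match. The 78.6% covers member windows inside and outside that range, so the 2 shares are not matched in G and C content. These are matches of letters, and no binding was measured.

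Median intensities of the 6 arrays lay between 37 and 49. All 10 marker genes of embryonic stem cells had means above the range of unspiked bacterial probe sets, which serve here as background, with log2 intensities from 3.00 to 5.09. By the same range Eno2 and Car9 lay at background, with means of 4.62 and 4.82, and the means of the other 26 members ran from 6.22 to 13.58. Intensities of different probe sets are not levels on 1 scale, so genes were compared between groups and not with each other. No filter on low values was applied. The Gapdh control probe sets, which report glyceraldehyde-3-phosphate dehydrogenase at the 5′ end, middle and 3′ end of the transcript, differed from control after SB431542 by −0.07, −0.21 and −0.13 in log2 units. Their 3′ minus 5′ difference, a sign of RNA integrity, was −0.05 on both control arrays and −0.14 and −0.08 after SB431542. The same difference for Actb, beta-actin, overlapped between the groups, at 0.22 and 0.32 in control and 0.20 and 0.27 after SB431542.

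**Figure D1:**
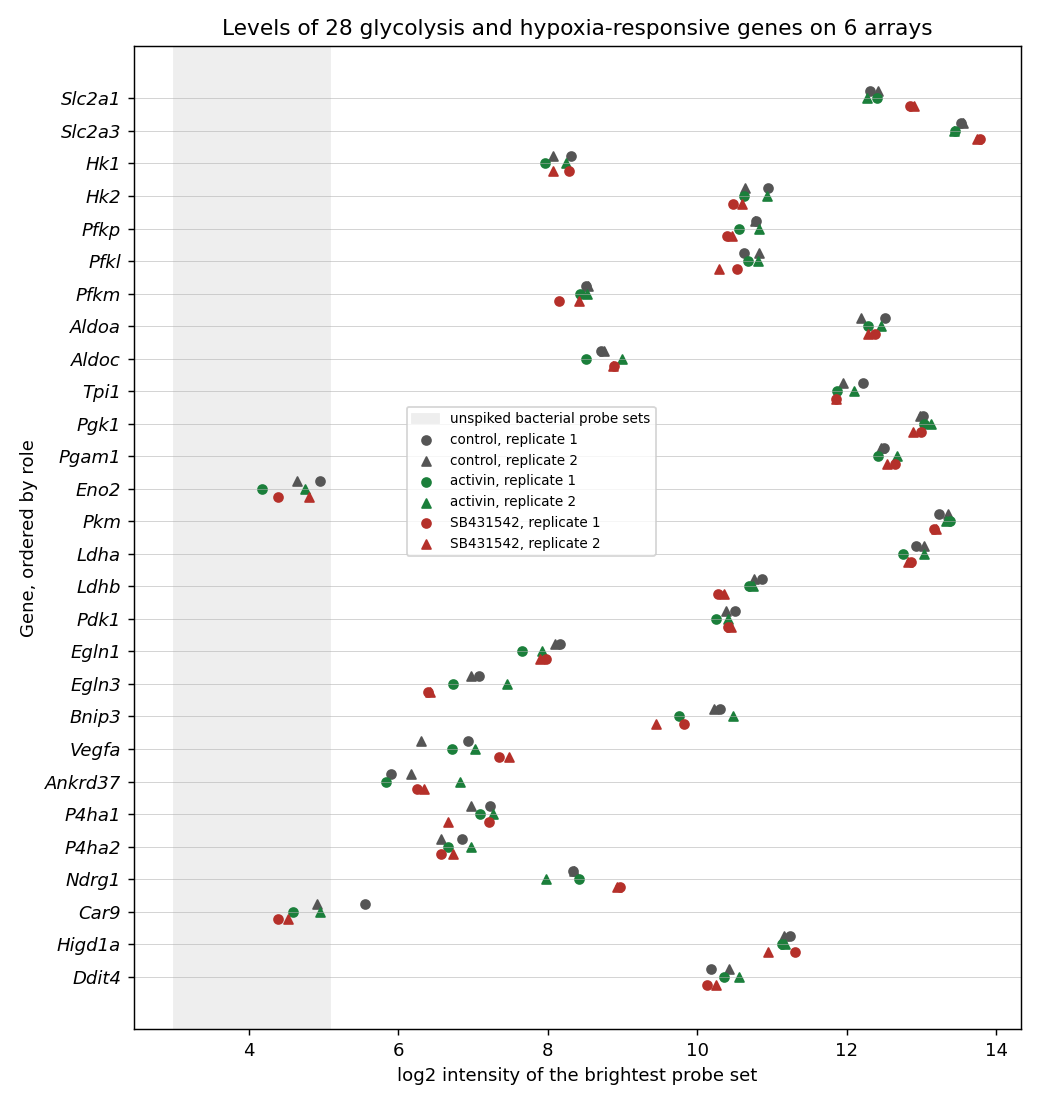
Log2 intensity of the brightest probe set of each of the 28 genes on the 6 arrays, with genes ordered by role, colour giving the group and symbol the replicate. The grey band is the range of 27 unspiked bacterial probe sets (3.00 to 5.09), and the SB431542 points of Slc2a1 and Slc2a3 lie to the right of all other arrays.

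The comparison of SB431542 with control asks which of these transcripts differ when endogenous Activin/Nodal signalling is blocked for 24 h. Both glucose transporters, Slc2a1 and Slc2a3, were higher, as were Vegfa and Ndrg1, while the phosphofructokinase Pfkp and the lactate dehydrogenase Ldhb were lower. These 6 passed at an adjusted p under 0.05 when limma estimated its prior variance robustly and as a function of brightness, a setting named the intensity trend from here on. At limma's default settings 0 of 28 passed, with 5 at an unadjusted p under 0.05. By default 0.0275% of all genes were called at the adjusted threshold. The share of all genes at the unadjusted threshold was not counted, so the 5 have no background beside them. With the intensity trend 4 of 28 members rose, where 4.25% of all genes did, and 2 fell, where 2.23% did. Calls were more frequent among bright genes. Of the 1820 brightest genes 11.0% rose and 4.84% fell, and of the 13 members among them 2 rose and 2 fell. With this setting 1 of the 6, Vegfa, passed when columns were shifted to 1 median. When a gene's probe sets were averaged 3 passed, Slc2a1, Slc2a3 and Ndrg1. Leaving out either SB431542 array lost several of the 6, and without SB431542 replicate 1 the calls were not all among the 6. Members lay on both sides of control, and the median over the 28 was −0.12 against −0.0021 over all genes.

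**Figure D2:**
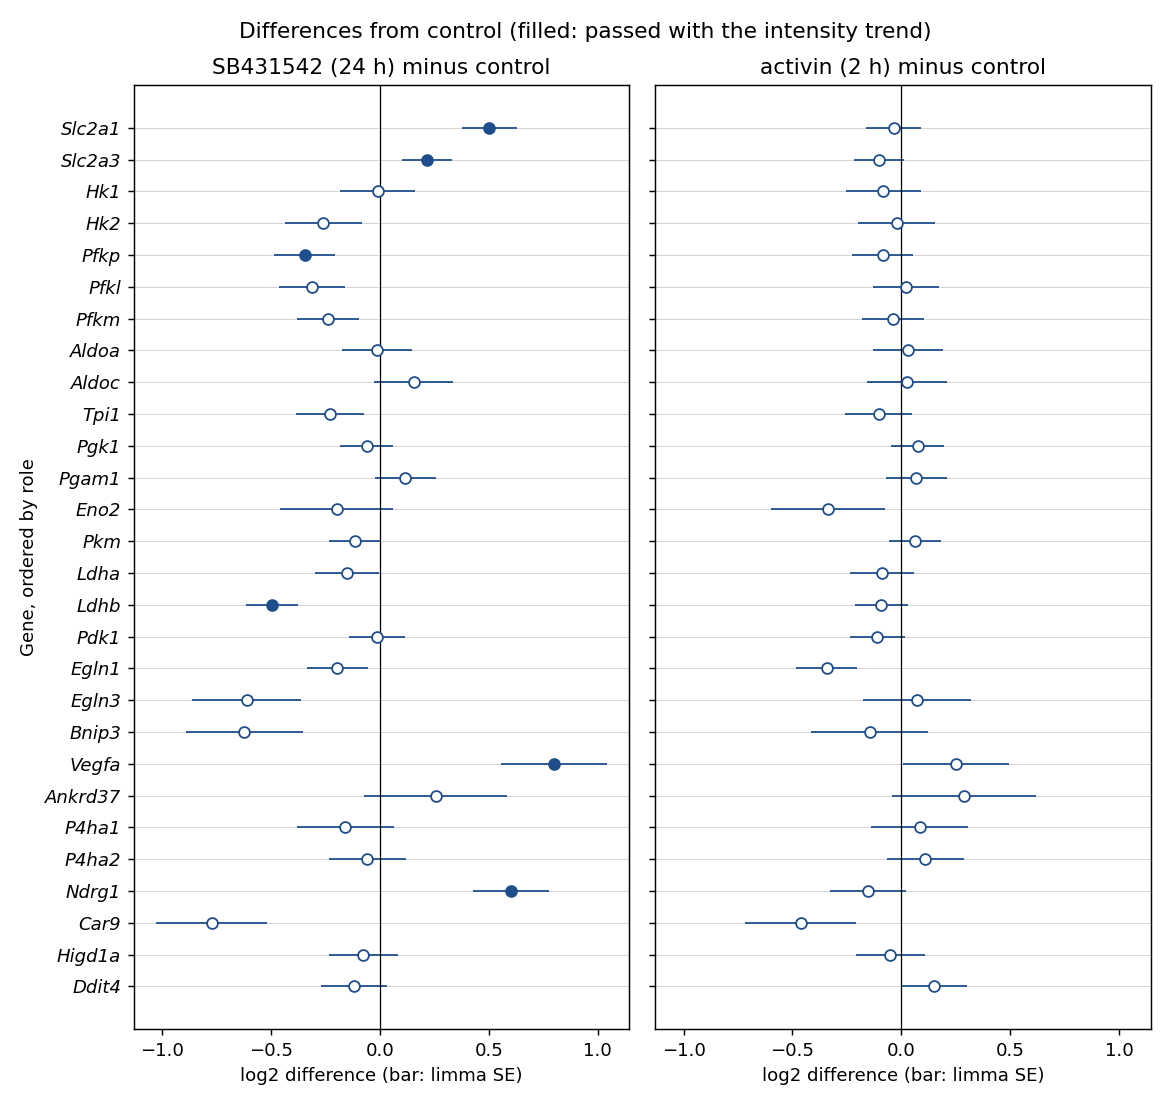
Log2 differences of the 28 genes from control, for SB431542 on the left and activin on the right, with the default limma standard error as bars. Filled points passed with the intensity trend: Slc2a1, Slc2a3, Vegfa, Ndrg1, Pfkp and Ldhb after SB431542 and 0 after activin.

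Slc2a1, the widely expressed transporter GLUT1, had log2 intensities of 12.31 and 12.42 in control cells, 12.40 and 12.26 after activin, and 12.84 and 12.90 after SB431542. Both SB431542 values were above the other 4. It rose 1.42-fold after SB431542, a log2 difference of 0.50 (SE 0.07, adjusted p by limma 5.71e-06 with the intensity trend and 0.256 by default). Its 3 probe sets all rose by the intensity trend, by 0.42 to 0.50. Slc2a3, the high-affinity transporter GLUT3, stood at 13.53 and 13.56 in control, 13.44 and 13.43 after activin, and 13.78 and 13.73 after SB431542. The 3 groups did not overlap, with SB431542 highest and activin lowest. Its log2 difference between SB431542 and control was 0.22 (SE 0.06, adjusted p by limma 0.0202 with the intensity trend and 0.485 by default). The other 3 of its 4 probe sets gave more, from 0.60 to 0.76, and all 4 rose by the intensity trend.

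The brightest Slc2a3 probe set missed the threshold with the intensity trend without control replicate 1 (limma adjusted p = 0.0716), SB431542 replicate 1 (0.343) or SB431542 replicate 2 (0.129). Slc2a1 passed without any 1 of the 6 arrays, and of 14 alternatives combined with the intensity trend missed the threshold under 1, columns shifted to 1 median (0.404).

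**Figure D3:**
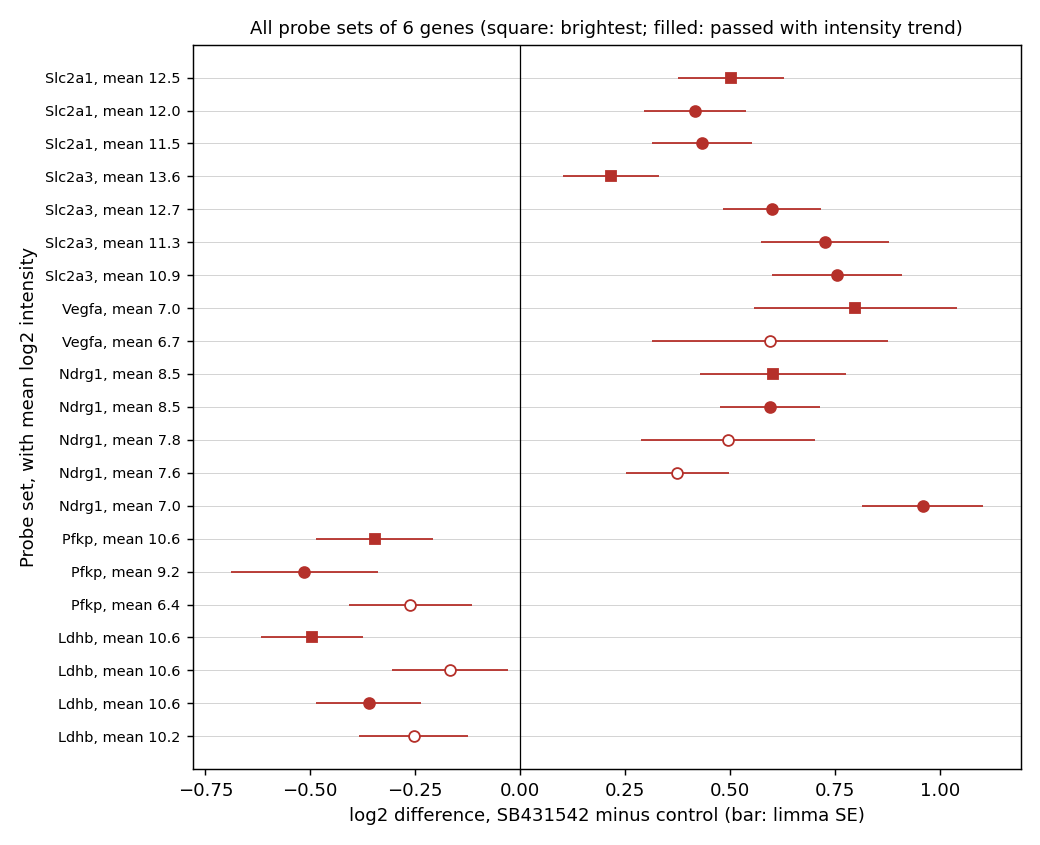
Log2 difference of SB431542 minus control for every probe set of the 6 genes that passed, with default limma standard errors; squares mark the brightest probe set and filled points those that passed with the intensity trend. All 14 probe sets of Slc2a1, Slc2a3, Vegfa and Ndrg1 lie above 0, and all 7 of Pfkp and Ldhb lie below it.

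The enzymes of upper glycolysis, from hexokinase to triose phosphate isomerase, had a median of −0.23 after SB431542, with 1 of 8 above control, where 49.3% of all genes were, and 2 of the others, Hk1 and Aldoa, at −0.01. Of the 8, 1 passed. That was Pfkp, the platelet-type subunit of phosphofructokinase, the committed step. Its log2 intensities were 10.78 and 10.77 in control, 10.56 and 10.82 after activin, and 10.40 and 10.46 after SB431542, the latter below the other 4. In log2 units it fell by 0.35 (SE 0.10, adjusted p by limma 0.0253 with the intensity trend and 0.389 by default). A second of its 3 probe sets fell by 0.51, and the dimmest, at −0.26, did not pass. Averaged over the 3, the gene missed the threshold (limma adjusted p = 0.105 with the intensity trend). The call is lost without either control array (limma adjusted p = 0.0589 and 0.0560) or either SB431542 array (0.266 and 0.113). The paralogous subunits Pfkl, of liver type, and Pfkm, of muscle type, were at −0.31 and −0.24, with SB431542 values below both controls and no call by either setting.

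Hk2, an inducible hexokinase bound to mitochondria, was at −0.26 and Hk1, the constitutive form, at −0.01 (95% confidence interval −0.44 to 0.42). Tpi1, which interconverts the triose phosphates, was at −0.23. A near-equal probe set of Tpi1 at −0.29 passed with the intensity trend (limma adjusted p = 0.0388). Aldoa, the main aldolase, was at −0.01 (−0.41 to 0.39) by its brightest probe set. Of its 5 probe sets 2 dimmer ones, at −0.29 and −0.26, had SB431542 values below both controls and did not pass (limma adjusted p = 0.0691 and 0.158 with the intensity trend). Aldoc, the aldolase best known from brain, was at 0.16. Aldoc was above control on both SB431542 arrays, at 8.89 and 8.88 against 8.71 and 8.74. A second Aldoc probe set, at a mean of 3.49, within the bacterial range, gave −0.20.

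In lower glycolysis 0 of 4 tested enzymes passed. Pgk1 and Pkm, the kinases of the ATP-yielding steps, were at −0.06 (−0.36 to 0.24) and −0.11 (−0.41 to 0.19), and Pgam1, phosphoglycerate mutase, was at 0.12. Eno2, neuronal enolase, was at background in all groups. At the fate of pyruvate 1 of 3 members passed. Ldhb, the heart-type subunit, stood at 10.86 and 10.76 in control, 10.69 and 10.75 after activin, and 10.27 and 10.36 after SB431542. The SB431542 values were the lowest, and the gene fell by 0.50, or 1.41-fold (SE 0.09, adjusted p by limma 4.38e-04 with the intensity trend and 0.252 by default). Its 4 probe sets gave −0.50 to −0.17, of which 2 fell by that test, and averaged over all 4 the gene missed the threshold (limma adjusted p = 0.0628). Ldha, the muscle-type subunit raised by hypoxia, had values of 12.92 and 13.04 in control and 12.85 and 12.81 after SB431542, a difference of −0.15 (−0.52 to 0.22) that did not pass. Pdk1 was at −0.01 (−0.33 to 0.31) by its brightest probe set. A second one of similar brightness, with means of 10.18 against 10.40, was at −0.28 with both SB431542 values below both controls, and did not pass (limma adjusted p = 0.0969 with the intensity trend). The difference between paralogs was not tested.

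The hypoxia-responsive members lay on both sides of control after SB431542, where 2 of 11 rose and 0 fell by the intensity trend. Of the 11, 3 lay above control, where 49.3% of all genes did, and those below include Higd1a at −0.08 and P4ha2 at −0.06. Vegfa, the angiogenic growth factor, read 6.93 and 6.30 in control, 6.71 and 7.02 after activin, and 7.35 and 7.48 after SB431542. It rose by 0.80, or 1.74-fold (SE 0.22, adjusted p by limma 0.0223 with the intensity trend and 0.308 by default). The control arrays were 0.63 apart, and without control replicate 2 the difference was 0.49 and did not pass (limma adjusted p = 0.283). It also missed the threshold without SB431542 replicate 1 (0.0973) or replicate 2 (0.222). A second Vegfa probe set gave 0.60 and did not pass, and the mean of both missed the threshold (0.0747).

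Ndrg1, a cytoplasmic protein induced by hypoxia, metals and differentiation, was tight in control, at 8.34 and 8.35, and in SB431542, at 8.96 and 8.93, and spread between the activin arrays, at 8.41 and 7.97. It rose by 0.60, or 1.52-fold (SE 0.14, adjusted p by limma 0.00589 with the intensity trend and 0.295 by default). All 5 of its probe sets were above control, by 0.38 to 0.96, and 3 rose by the intensity trend. Without SB431542 replicate 1 the call was lost (limma adjusted p = 0.0776).

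Other targets of the same factor lay on the opposite side. Egln3, an oxygen-sensing prolyl hydroxylase that is itself induced by hypoxia, stood at 7.08 and 6.97 in control and 6.39 and 6.43 after SB431542, with activin values of 6.73 and 7.46. Its difference of −0.61 did not pass (limma adjusted p = 0.128 with the intensity trend), and a second probe set gave −0.60. Bnip3, a mitochondrial protein that promotes mitophagy, stood at 10.30 and 10.23 in control, 9.76 and 10.47 after activin, and 9.82 and 9.45 after SB431542. Both SB431542 values were below both controls, but the difference of −0.62 did not pass over the 6 arrays (limma adjusted p = 0.312 with the intensity trend). Fitted on the 4 arrays of these 2 groups alone, without the widely spread activin arrays, Bnip3 passed (limma adjusted p = 1.84e-04 with the intensity trend). Of 14 alternatives combined with the intensity trend it passed under only 5, this one included. Repeated quantile normalization was among those where it missed the threshold (limma adjusted p = 0.190). Across the 14 its difference ran from −0.81 to −0.44. Car9, a carbonic anhydrase and a classical hypoxia marker, read 5.55 and 4.91 in control, 4.58 and 4.95 after activin and 4.39 and 4.52 after SB431542. Its SB431542 values were the lowest, and the difference of −0.77 did not pass and lies largely in the background range. Egln1, the main oxygen sensor, was at −0.20.

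By their brightest probe sets the remaining hypoxia-responsive members were within 0.26 of control after SB431542. Ankrd37, an ankyrin repeat protein, was at 0.26, P4ha1 and P4ha2, the catalytic subunits of collagen prolyl hydroxylase, at −0.16 and −0.06, Higd1a, a mitochondrial protein, at −0.08 and Ddit4, an inhibitor of mTORC1, at −0.12. A dimmer Higd1a probe set gave 0.36 and a dimmer P4ha1 one −0.43, and neither passed with the intensity trend.

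By position of the arrays alone, 7 of the 28 members had both SB431542 values above both controls, where 23.9% of all genes did, and 12 had both below, where 22.4% did. The lower set was Hk2, Pfkp, Pfkl, Pfkm, Tpi1, Pkm, Ldha, Ldhb, Egln1, Egln3, Bnip3 and Car9. Among the 13 members that rank in the brightest 10% of genes 3 lay above and 7 below, while 35.5% and 28.0% of the 1820 genes of that class did.

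Markers of another cell type moved in the same comparison. Of 12 trophectoderm markers 8 rose and 1, Eomes, fell by the intensity trend. Their summed intensity ran from 12075 to 13870 in control, 11332 to 11595 after activin and 18380 to 18624 after SB431542, and Elf5 lay within the bacterial range. Of the 10 embryonic stem cell markers 5 fell and 1, Klf4, rose, and their sum went from between 58245 and 59323 to between 52667 and 54071. Of 9 fibroblast markers Vim and Col1a1 fell, with sums of 3759 to 3872 in control and 2498 to 2679 after SB431542, and Col3a1, Dcn, Lum and Postn lay within the bacterial range. Of 9 extraembryonic endoderm markers 0 passed and 5 lay in that range, and of 5 neuroectoderm markers 1, Pax6, rose. In such bulk RNA fewer cells of a type and less RNA per cell cannot be told apart. The part of these markers in the differences of the transporters, Vegfa, Ndrg1, Pfkp and Ldhb was not tested.

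Further genes of the pathway and its surroundings, 96 measured of 104 listed, gave 0 calls by limma's default. At an unadjusted p under 0.05 there were 14 in SB431542 against control, 1 in activin against control and 16 in activin against SB431542. The share of all genes at that unadjusted threshold was not counted, so these counts have no background beside them. After SB431542, of 12 regulators of glycolytic flux and lactate transport 1 rose by the intensity trend. This was Pfkfb3, which makes the fructose 2,6-bisphosphate that activates phosphofructokinase, with 6.85 and 7.04 in control, 6.67 and 6.77 after activin and 7.84 and 8.05 after SB431542. Both SB431542 values were above the other 4, with a difference from control of 1.00 (SE 0.19, adjusted p by limma 5.43e-04 with the intensity trend and 0.166 by default). Of 25 other hypoxia-responsive genes 2 rose, Wsb1 by 0.74 and Anxa2 by 0.35, and Tfrc, the transferrin receptor, fell by 0.45. Of 13 genes of hypoxia sensing Cited2, which competes with hypoxia-inducible factor for its co-activator, rose by 0.30, while Hif1a itself, at 0.25, missed the threshold (adjusted p by limma 0.0605 with the intensity trend). Of 10 genes of pyruvate dehydrogenase and its kinases Pdhb, a subunit of the enzyme, fell by 0.27. None of 10 other glycolytic enzymes, 6 pentose phosphate pathway genes, 14 of the tricarboxylic acid cycle or 6 of gluconeogenesis passed in this comparison by either setting.

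The comparison of activin with control asks whether 2 h of added ligand alters the same genes, and uses the same control arrays. By its brightest probe set no member passed in limma, with 0 by default, 0 with the intensity trend and 0 of 28 at an unadjusted default p under 0.05. Over all genes 0% were called by default, and with the intensity trend 0.137% rose and 0.0110% fell. The 28 differences ran from −0.46 for Car9, at background, to 0.29 for Ankrd37, with a median of −0.04 and 12 above control. Among the brightest probe sets Egln1 came nearest to the threshold with the intensity trend (adjusted p = 0.627), at 8.16 and 8.10 in control, 7.66 and 7.92 after activin and 7.97 and 7.90 after SB431542, a log2 difference of −0.34 (limma adjusted p = 0.808 by default), but its second probe set gave 0.16. Both activin values of Egln1 lay below both controls. Eno2, also at −0.34, was at background, with 4.95 and 4.64 in control, 4.17 and 4.75 after activin and 4.39 and 4.81 after SB431542. By its brightest probe set Slc2a1 was at −0.03 (95% confidence interval −0.35 to 0.28). Its other 2 probe sets were at −0.20 and −0.33, both with activin values below both controls. The last came nearer to the threshold than any brightest probe set (limma adjusted p = 0.0690 with the intensity trend), and was under 0.05 by the unadjusted default p. Slc2a3 was at −0.10 (−0.39 to 0.18). The dimmer Vegfa probe set was at 0.59 with activin values above both controls, against 0.25 for the brighter one, and did not pass (limma adjusted p = 0.553 with the intensity trend). A dimmer probe set of Ndrg1 gave 0.29 and one of Higd1a 0.54, against −0.15 and −0.05 for the brightest, and neither passed. Both activin values lay above both controls in 1 member, Pgk1, where 14.9% of all genes did, and below in 3, Slc2a3, Ldhb and Egln1, where 15.2% did.

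The median of the members in this comparison turned on 1 array, at 0.057 without activin replicate 1 and −0.11 without activin replicate 2. The 2 activin arrays differed from each other in these genes. Activin replicate 2 was above replicate 1 in 24 of 28 members, where 62.7% of all genes were, with a median difference of 0.24 on the log2 scale against 0.09 over all genes. In the brightest 10% of genes, which holds 13 members, 10 members were above with a median of 0.13, while 46.0% of the genes of that class were above with a median of −0.0094. For the hypoxia-responsive members the median was 0.31, with 10 of 11 above, and for the glycolytic members 0.18, with 14 of 17 above. All genes were also split by brightness into 10 classes, with class 10 the brightest. Of all genes 74.4% were above in class 3, 78.6% in class 5 and 71.7% in class 6. Medians there were 0.35, 0.28 and 0.15 over all genes, and 0.48, 0.99 and 0.31 for the 2, 1 and 4 members. These were Egln3, Vegfa, Ankrd37, P4ha1 and P4ha2, with Eno2 and Car9 at background. The hypoxia-responsive and glycolytic medians are thus not matched in brightness. With 1 array on each side there is no test of the gap between the activin arrays.

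Ankrd37 was at 5.83 on activin replicate 1 and 6.82 on replicate 2, the widest gap of the 28, against 5.91 and 6.17 in control and 6.25 and 6.34 after SB431542. Egln3, at 6.73 and 7.46, and Bnip3, at 9.76 and 10.47, followed, and in all 3 the control values lay between the 2 activin values. All 3 were higher on replicate 2, as were 24 of the 28 members and 62.7% of all genes. Among the glycolytic members Eno2 differed by 0.58, at background, Aldoc by 0.47, Hk2 by 0.31 and Ldha by 0.29. Ndrg1 was at −0.44 by its brightest probe set, but a second one of nearly the same level read 8.17 on replicate 1 and 8.29 on replicate 2, so its direction depends on the probe set. The transporters were at −0.14 for Slc2a1 and −0.01 for Slc2a3. Activin replicate 2 also had the highest median intensity of the 6 arrays, at 49 against 38 for replicate 1, and the part of this in the gap was not tested. In the other groups member medians were −0.07 between the control arrays and 0.01 between the SB431542 arrays.

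**Figure D4:**
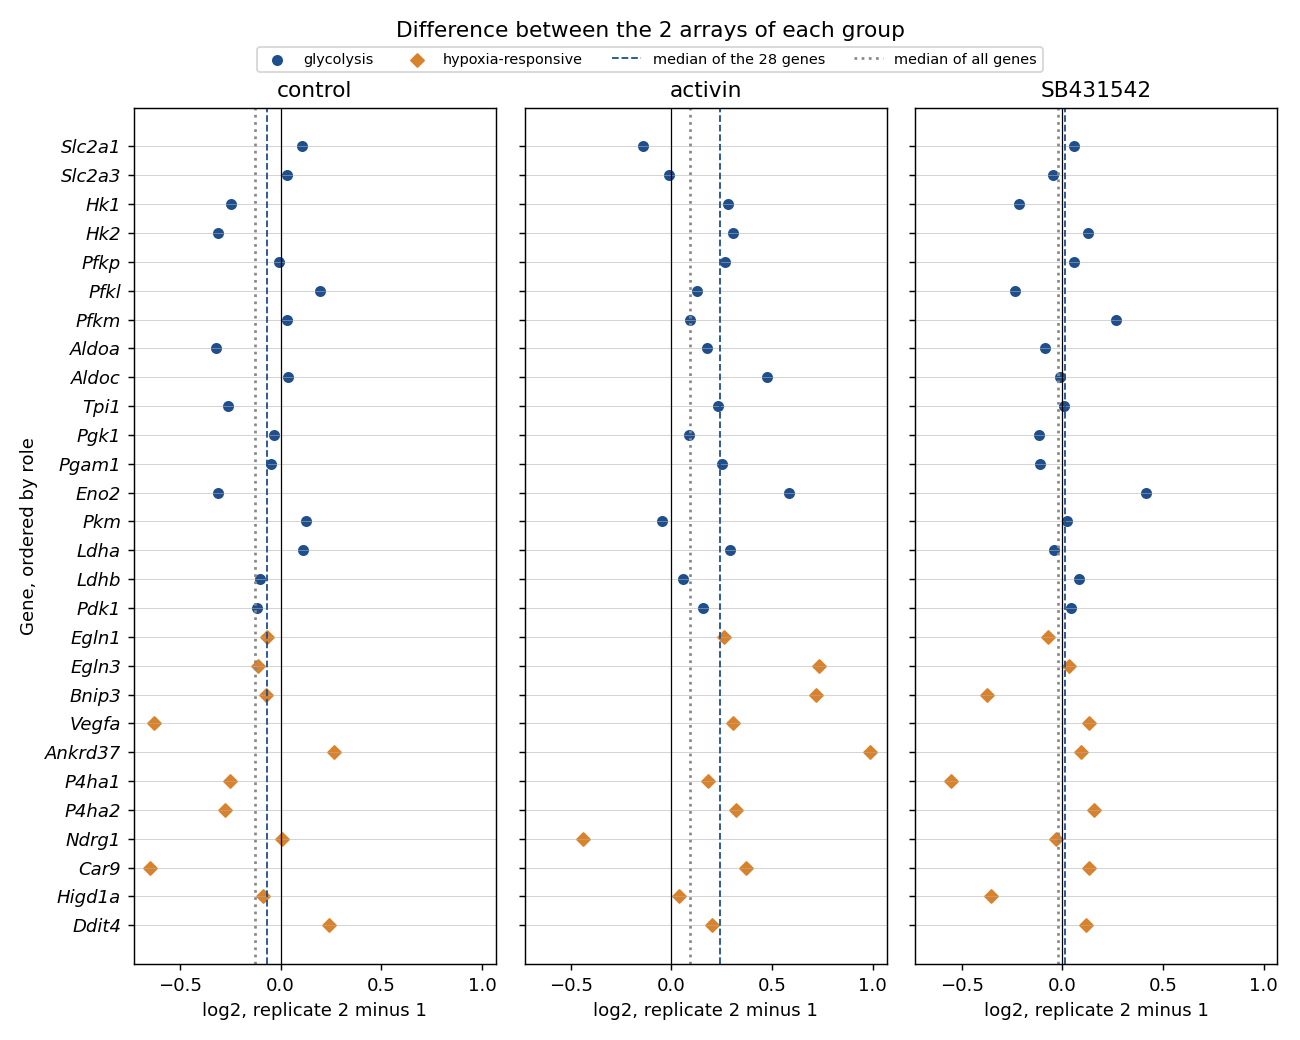
Difference between the 2 arrays of each group, replicate 2 minus replicate 1 in log2 units, for the 28 genes, with circles for glycolytic and diamonds for hypoxia-responsive members. Dashed and dotted lines are the medians of the 28 genes and of all genes, and in the activin panel 24 of 28 points lie above 0, with Ankrd37, Egln3 and Bnip3 farthest out.

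The direct comparison of activin with SB431542 uses no control array, but it shares its activin and SB431542 arrays with the comparisons above. By default 0 of 28 members passed, and 0.0330% of all genes were called. At an unadjusted p under 0.05 there were 5 members, and the share of all genes at that threshold was not counted. With the intensity trend 1 member was higher after activin, where 1.26% of genes were, and 3 were lower, where 2.12% were. Of the 1820 brightest genes 1.87% were higher and 4.23% lower, and of the 13 members among them 1 was higher and 2 were lower. With this setting 1 member passed when columns were shifted to 1 median, and 2 without activin replicate 2. The higher one was Ldhb, by 0.40 (SE 0.09, limma adjusted p = 0.00841). Its other 3 probe sets gave 0.21 to 0.25 and did not pass, and averaged over all 4 the gene was at 0.28 and missed the threshold (limma adjusted p = 0.146 with the intensity trend). The lower ones were Slc2a1 at −0.54 (limma adjusted p = 2.51e-06), Slc2a3 at −0.32 (5.81e-04) and Ndrg1 at −0.76 (7.93e-04). Egln3 was at 0.68, with an adjusted p of 0.127 with the intensity trend, and Vegfa at −0.55 with 0.262, while the dimmer Vegfa probe set showed almost no difference, at −0.0039. Both activin values lay above both SB431542 values in 11 members, where 19.7% of genes did, and below in 4, where 22.8% did. Without activin replicate 2 the calls of Ldhb and Ndrg1 were lost (limma adjusted p = 0.0755 and 0.0667). Ldhb also missed the threshold without SB431542 replicate 1 (0.250) or replicate 2 (0.0542), and Slc2a3 without SB431542 replicate 1 (0.0633). Dimmer probe sets of Pfkl at −0.13, with a mean of 4.61 in the bacterial range, Pdk1 at 0.23 and Egln1 at 0.17 differed in sign from the brightest ones, at 0.33, −0.10 and −0.15, and none of the 6 passed.

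Around the members, the same comparison gave Pfkfb3 lower after activin by 1.22, a value of −1.22 (limma adjusted p = 4.67e-05 with the intensity trend), and Mpc1, a subunit of the mitochondrial pyruvate carrier, higher by 0.52 (0.00331). Of the 25 other hypoxia-responsive genes 3 were higher, Bhlhe40, Stc2 and Tfrc, by 0.62, 0.67 and 0.32, and 2 were lower, Anxa2 at −0.52 and Wsb1 at −0.42. After activin against control 0 of the 96 passed by either setting.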

How the data were processed

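RNA of 6 samples was hybridised to Affymetrix mouse arrays of 1 colour. The authors deposited a linear intensity for each probe set, in whole numbers from 6 to 26405, and RMA is the method given in the submitters' processing notes. Whole numbers make the steps of dim values coarse. Here each intensity was converted to log2 with no further normalization. Of 45101 probe sets, 64 Affymetrix controls were left out, and 34945 of the 45037 tested carry 1 gene symbol, 932 several and 9160 none in the platform annotation. The Entrez identifiers of 34741 were matched to RefSeq genes, changing 0 symbols. Fits used limma 3.58.1 in R 4.3.3 over all 6 arrays with 1 mean per group, Benjamini-Hochberg adjustment over 45037 probe sets and a threshold of 0.05. The default prior added 2.51 degrees of freedom to 3 residual ones, and the intensity trend with robust estimation a median of 34.3. Standard errors in the text are from the intensity trend, and confidence intervals and the bars of the plots from the default. The fit was tested on simulated data. Groups and replicate numbers are those of the titles. SB431542 is spelt SB432542 in some labels.

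Values on every array are given for members past the threshold by either setting, for the 6 largest differences after SB431542 and the 4 largest after activin, and paralogs are named with them. Of the neighbouring lists, genes past the intensity trend are named, at most 4 each way. Other probe sets of a member are given where they differ in sign from the brightest by over 0.3. Some sentences also give values of genes chosen after they were seen, such as Aldoc and Hif1a. The members and lists were chosen with earlier results of these data known. Alternatives were the intensity trend, repeated quantile normalization, columns shifted to 1 median, an offset of 16, the dimmest 40% of probe sets left out, averaged probe sets, only the 4 arrays compared, a replicate block and each array left out. With 2 arrays a group, their number limits the precision.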

Additional observations from a re-analysis of the deposited data

How the results depend on the processing

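By limma's default 0 of the 28 genes passed in each of the 3 comparisons under all other settings, and 6 (SB431542 against control) and 4 (activin against SB431542) with the intensity trend, whose prior pools more degrees of freedom. Combining the intensity trend with the other choices was decided after seeing the data. In SB431542 against control it called 1 gene, Vegfa, with columns shifted to 1 median, 3 with a gene's probe sets averaged, and 3 to 8 without 1 array, 3 of them without either SB431542 array. In activin against SB431542 it called 1 with columns shifted and 2 to 6 without 1 array, 2 of them without activin replicate 2. In activin against control it called 0 throughout. Without 1 array, members whose groups do not overlap numbered 4 to 21 in activin against control and 15 to 24 in activin against SB431542, since a lone array separates more easily. The former count was 7 with repeated quantile normalization and 8 with columns shifted. The median difference ran from −0.11 to 0.057 (without activin replicate 1) in activin against control and from 0.0092 to 0.19 in activin against SB431542. Ankrd37 in activin against control ran from −0.21, reversed, without activin replicate 2 to 0.78 without activin replicate 1. Leaving out the dimmest 40% removed Eno2 and Car9. Apart from these, the cause of each move was not tested.

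Differences between replicates, taken by title number, correlated across 18193 genes at −0.14 for control and activin. The values were 0.03 for control and SB431542 and −0.12 for activin and SB431542. These values show no pairing by title number but cannot exclude it, since the differences also carry shifts of whole arrays. With the replicate block 0 genes passed by default in each comparison, and 6, 0 and 4 with the intensity trend added. With the activin numbers crossed, a pairing added after seeing the data, the default called 0 and the intensity trend 8, 0 and 5.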
